A study of Bos taurus with 32 samples.

Results

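Subcutaneous fat (backfat) of steers fed a high fat diet was compared with that of steers fed a control diet, over all 16 of the 32 arrays of the series that were labelled as subcutaneous fat. The arrays were chosen by their labels alone, 8 for each diet, and each array held the total RNA of 1 steer. The 16 animals were yearling Hereford × Aberdeen Angus steers, which were kept in individual pens and fed to slaughter on diets that differed in fat content, the high fat diet holding flax seed that the control diet did not. The other 16 arrays held visceral (perirenal) fat of the same steers and are used here only to ask whether a difference departed between depots. Whole tissue was extracted, so fewer cells of a type and less RNA per cell cannot be told apart. The 8 arrays of each group lay on 1 slide, and the slides of each diet were scanned in a session of their own, so diet cannot be told apart from slide and scan session.

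MicroRNAs (miRNAs) are short RNAs that guide Argonaute proteins to messenger RNAs with a match to the seed, a few bases near the miRNA's start, and lower the output of those messengers. Members of a miRNA family share the seed, and members of a cluster are cut from a common primary transcript. In fat tissue, miRNAs are known for their parts in the commitment of precursors to fat cells, in insulin sensitivity and in the turnover of the matrix, and the tissue also holds endothelial, blood and stromal cells with miRNAs of their own.

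Each array measured 672 bovine miRNAs. The intensity of a miRNA is the background-subtracted fluorescence that the scanner software summed over its probes, and it depends on how well a probe binds as well as on abundance, so that levels of different miRNAs are compared below only as places in the signal of an array. The arrays of the diets differed in overall brightness. Intensities summed over all miRNAs were 28900 to 79290 on the control arrays (median 40181) and 176846 to 366714 on high fat arrays (median 239868). The number of miRNAs called detected was 118 to 176 on control arrays and 228 to 254 on high fat arrays. Local background was close in level, with medians of 29.2 on control and 27.5 on high fat arrays, and the labelling spike-ins, RNAs added in a fixed amount, had median log2 signals of 12.01 and 11.71. Not every control was level between the diets. Another set of control probes, whose target was not established, was brighter on the high fat arrays and was not used. Because overall brightness, slide and session ran with the diet, differences are given relative to other miRNAs of the same array wherever possible.

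Before any scaling, nearly the whole profile was brighter on the high fat arrays, but by very unequal amounts. Of 240 miRNAs detected on at least 8 of the 32 arrays, 206 (85.8% of those tested) were higher and 4 (1.67%) lower at an adjusted p under 0.05 (limma, Benjamini-Hochberg). Among the 104 miRNAs detected on all 16 arrays, unscaled log2 differences ran from -0.59 to 7.07 with a median of 1.85, and 17 of the 104 moved by less than 0.5. Those 17 held 2 of the brightest miRNAs of the control arrays, let-7b and let-7c, beside many bovine miRNAs of high number. The lowest, median and highest unscaled intensities of let-7b were 7980, 10746 and 22140 in control steers and 8239, 12680 and 22634 in high fat steers. The ranges of let-7b lay almost on top of each other.

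**Figure D1:**
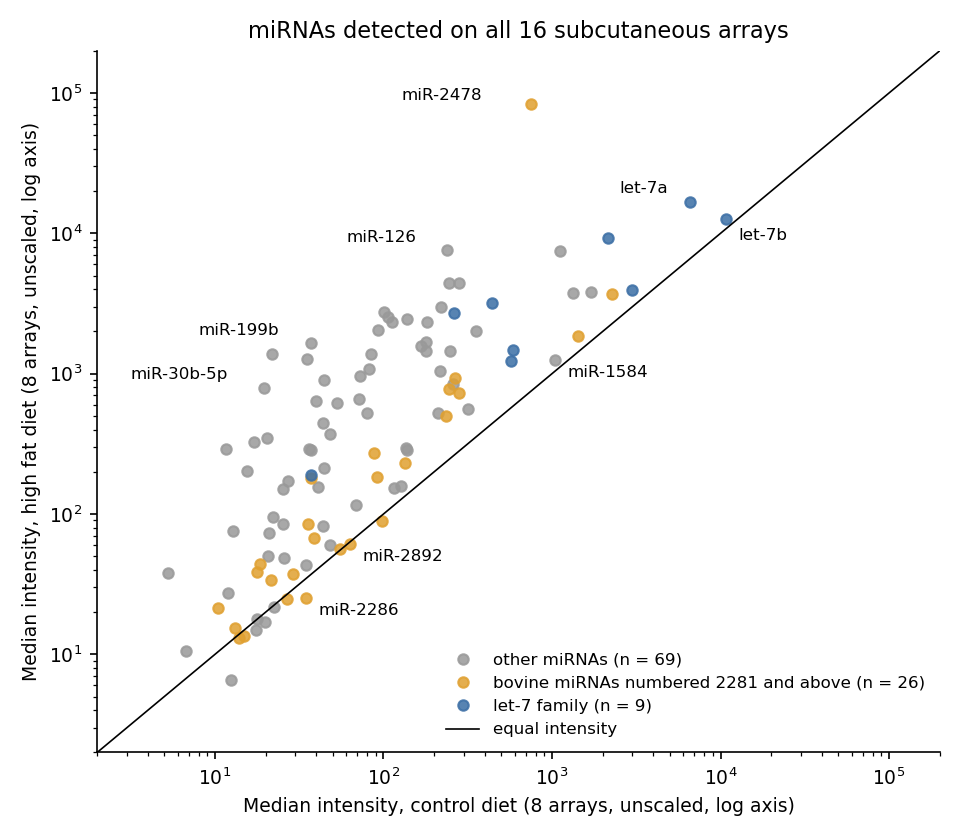
Median unscaled intensity of each of the 104 miRNAs detected on all 16 subcutaneous arrays, control diet on the x axis and high fat diet on the y axis (arbitrary fluorescence units, both axes logarithmic, 8 arrays each). The let-7b point sits near the line of equal intensity at 10746 and 12680, miR-2892 lies on it, and miR-2478 rises from 750.1 to 83052.

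The largest unscaled difference among those 104 belonged to bta-miR-2478, a miRNA named from cattle sequences. Its lowest, median and highest intensities were 182, 750.1 and 1318 on control arrays and 60744, 83052 and 122934 on high fat arrays, so every high fat array was far above every control array. It made up 1.7 ± 1.12% of the summed intensity in control steers and 34.4 ± 2.34% in high fat steers (SD, n = 8 each). It moved from a median rank of 12 to rank 1 on all 8 high fat arrays. Since shares add up to 100, the shares of other miRNAs are also given without it below.

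For the main comparison each array's log2 intensities were centred on the median of the 91 miRNAs that all 32 arrays detected, lower values were raised to a common floor, and 236 miRNAs were tested with limma. The high fat arrays had 97 miRNAs higher (41.1% of those tested) and 79 lower (33.5%), and 60 did not pass. Over all 236 the median log2 difference was 0.07. A miRNA seen only on the brighter arrays enters this count because it was bright there, so the balance was read over the 104 miRNAs detected on all 16 arrays, where 29 were higher and 61 lower. Over all 236, the groups of 8 did not overlap for 76 higher miRNAs (32.2%) and for 44 lower ones (18.6%). These counts too include miRNAs seen only on the brighter arrays, so their balance is not read. Every call here is relative to the array, and with the spike-ins as the scale 1 miRNA was lower and 216 were higher.

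Calls that did not depend on how the arrays were scaled were counted over 9 scalings (the median and the 75th percentile of the 91 miRNAs, the 75th percentile of all 672, quantile normalization, percentile ranks, bta-miR-181a, the labelling spike-ins, the deposited log2 values and none). Under all 9, 46 miRNAs (19.5%) were called higher and 1 (0.424%) lower. Of the 46, 18 were detected on no control array, and 6 were detected on all 16 arrays, namely miR-2478, miR-30b-5p, miR-199b, miR-34a, miR-15a and miR-126. With normexp background correction, which changes the signal and not the scaling, 13 of the 46 were still called higher. Normexp was run on spot intensities with an offset of 50, which draws the values of dim miRNAs together before the array is centred. How far this offset makes the turns under normexp given below was not tested. The 1 lower miRNA was bta-miR-2368*, which was detected on 7 control arrays, with at most 13.0, and on 4 high fat arrays, with at most 9.58, and had a difference of -2.39 ± 0.44 (SE, adjusted p = 1.58e-05, limma). The diets overlapped for it. Of the 41 named miRNAs called higher, 26 were still called under the 75th percentile of all miRNAs and 7 turned below 0, 26 were still called in the deposited log2 values and 9 turned, and 27 were still called under normexp and 14 turned. A 75th percentile over all miRNAs, used there and in the deposited log2 values, depends on how many miRNAs an array detected. That number was 118 to 176 on control arrays and 228 to 254 on high fat arrays. In the deposited log2 values 14 arrays of the series had a shift of 0, so they were left unscaled. How far this makes the turns below 0 under these scalings was not tested. Of the 27 named miRNAs called lower, 17 turned above 0 with no scaling and 25 with the spike-ins.

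**Figure D2:**
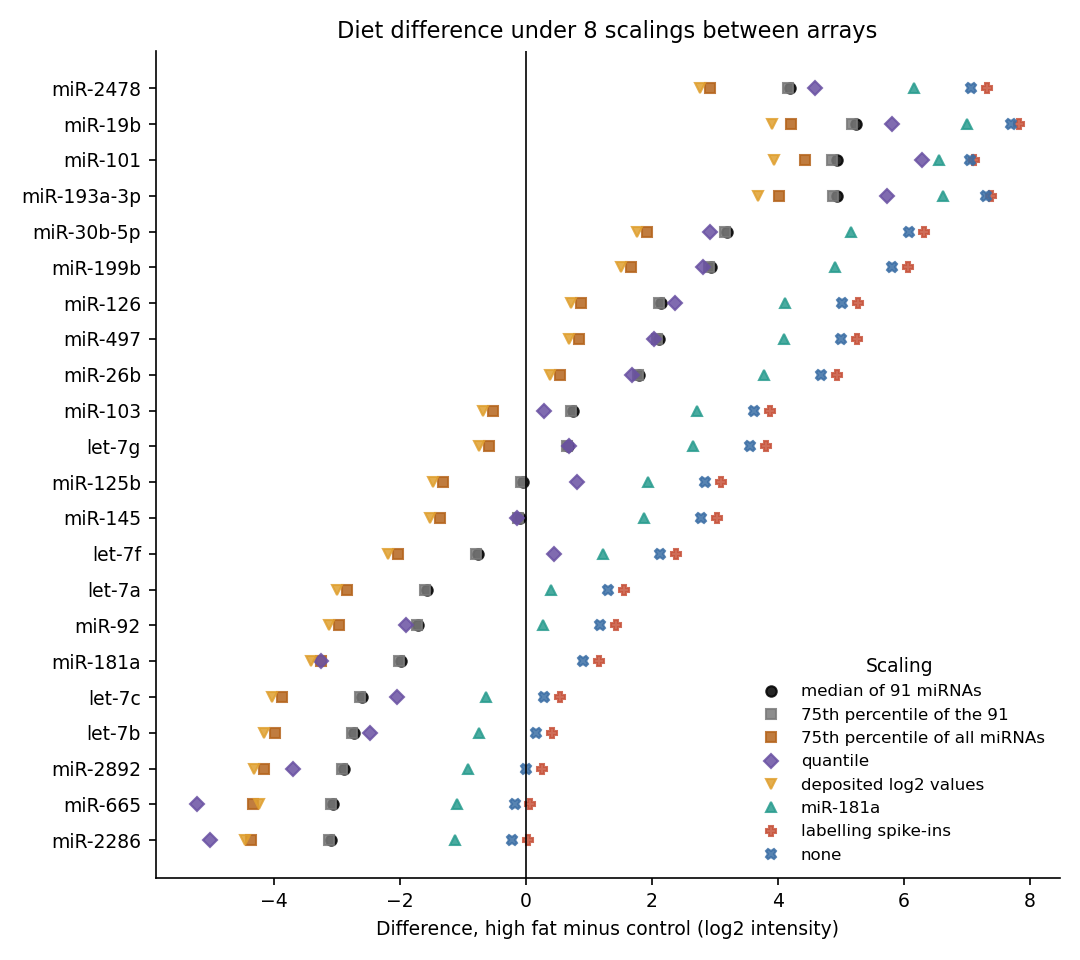
Difference between the diets (high fat minus control, log2 intensity) for 22 of the named miRNAs under 8 scalings on a log2 scale, 1 symbol per scaling, with a line at 0. The symbols of miR-2478 lie to the right of 0 under every scaling, while those of let-7b run from -4.15 in the deposited log2 values to 0.41 with the labelling spike-ins, with the main scaling at -2.72.

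The let-7 family, the main family of the control arrays, is known for holding back proliferation and is reported to act against fat cell differentiation in culture. Its list on the array held 10 miRNAs, counting miR-98, which shares the seed, and let-7a*, an opposite arm that does not. Of the 10, 9 were tested, and all 9 were detected on all 16 arrays. Among those 9 miRNAs 7 were lower, let-7g was higher and let-7i did not pass, and the median difference was -1.57. That of all 236 miRNAs was 0.07, and that of the 91 miRNAs detected on all 32 arrays was -0.88. Of the 104 miRNAs detected on all 16 arrays 61 were lower. The family's share of the summed intensity was 58.8 ± 5.14% in control steers, with a range of 51.6 to 64.9%, and 21.2 ± 1.58% in high fat steers, with a range of 19.1 to 24.0%. Without miR-2478 the shares were 59.8 ± 5.4% and 32.3 ± 2.18%. The diets did not overlap.

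Within the family the members were far from moving alike. let-7b and let-7c, whose intensities hardly differed before scaling, had differences of -2.72 ± 0.18 and -2.60 ± 0.16 on the centred log2 scale (SE, adjusted p = 2.12e-14 and 8.97e-15, limma). The intensities of let-7c were 2548, 2968 and 6303 on control arrays and 2643, 3978 and 7017 on high fat arrays (lowest, median, highest). let-7a, let-7d and let-7e lay between, at -1.57, -1.74 and -1.67, and let-7f and miR-98 were at -0.76 and -0.47. let-7f turned to a rise of 0.45 under quantile normalization. At the other end let-7i was at 0.06 ± 0.17 (adjusted p = 0.778, limma) and let-7g at 0.68 ± 0.17 (adjusted p = 0.000735, limma), and let-7g turned to -0.75 in the deposited log2 values. The intensities of let-7g were 71.8, 263 and 604 on control and 1579, 2691 and 4759 on high fat arrays, with no overlap before scaling.

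Ratios between related miRNAs of the same array carry no scaling, and 7 of the 21 pairs drawn up had both partners detected on all 16 arrays. With exact permutation tests (two-sided) on the mean log2 ratio, adjusted over the 7 pairs, 6 differed between the diets, 3 of them upward, and for 3 the diets did not overlap. The ratio of let-7g to let-7b, which share a seed, was -5.61 ± 0.61 in control steers and -2.21 ± 0.12 in high fat steers (log2, SD, n = 8 each), with ranges of -7.08 to -5.20 and -2.43 to -2.05. The difference was 3.40 ± 0.22 (SE, exact permutation, adjusted p = 0.000363). The lowest control value came from steer 405, and without any 1 array the difference stayed between 3.19 and 3.46.

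let-7f and let-7a, whose hairpins lie within 10 kb of each other in RefSeq, had a log2 ratio of -1.65 ± 0.10 in control steers and -0.83 ± 0.04 in high fat steers, a difference of 0.82 ± 0.04 (exact permutation, adjusted p = 0.000363). This pair had the tightest ratios of the 7, and its diets did not overlap. miR-26b over miR-26a, seed partners known from fat cell differentiation, moved from -0.75 ± 0.29 to 0.17 ± 0.12, a difference of 0.92 ± 0.11 (exact permutation, adjusted p = 0.000363), again with no overlap. In contrast, miR-103 over miR-107, paralogs in introns of the PANK genes, fell by 0.54 (SE 0.10, exact permutation, adjusted p = 0.000816), with ranges of 1.66 to 2.26 in control steers and 1.29 to 1.83 in high fat steers that overlapped.

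Other pairs were arms of 1 hairpin or members of 1 cluster. The arms miR-199a-3p and miR-199a-5p had a log2 ratio of 2.55 ± 0.35 in control steers and 2.29 ± 0.11 in high fat steers (difference -0.26 ± 0.13, exact permutation, adjusted p = 0.039), and the arms miR-151 and miR-151* differed by -0.62 ± 0.13 (exact permutation, adjusted p = 0.00283). Both overlapped between the diets. The difference of the miR-199a arms was -0.15 without control steer 111 (exact permutation, adjusted p = 0.0767), and its call was lost on leaving out any 1 of 10 of the 16 arrays. For the cluster partners miR-27b and miR-24-3p the difference was 0.01 ± 0.23 (exact permutation, adjusted p = 0.961), and the control arrays spread more widely, from -1.51 to 0.07, than the high fat arrays, from -0.73 to -0.37. Over the arrays of 1 diet, the ratios of the first 3 pairs were also set against overall brightness (6 relations), and 0 had a Pearson p that passed after adjustment. The nearest was let-7g over let-7b on the control diet (Pearson r = 0.747, Spearman rho = 0.571, n = 8, exact permutation p = 0.0227 and 0.151, Pearson adjusted p = 0.136), where r was 0.152 without the 2 arrays farthest from the median brightness. On the same arrays r went the other way without the farthest 2 for let-7f over let-7a, from -0.06 to -0.878, and for the miR-199a arms, from -0.609 to -0.801. For the latter Spearman's rho was -0.738 over the 8 control arrays (exact permutation p = 0.0458, not adjusted).

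**Figure D3:**
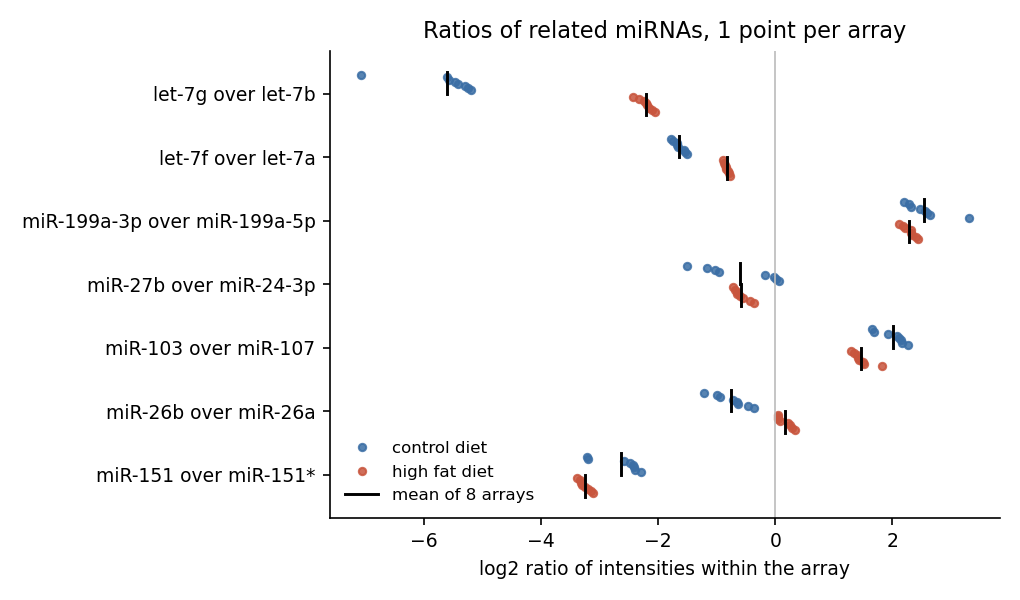
log2 ratio of intensities within the array for the 7 pairs with both partners detected on all 16 subcutaneous arrays, 1 point per array and a bar at the mean of 8 arrays. The diets stand apart for let-7g over let-7b, let-7f over let-7a and miR-26b over miR-26a and overlap for the other 4.

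Other lists of related miRNAs were compared by their share of the summed intensity. Of the 28 lists, 26 had a detected member, and with exact permutation tests (two-sided) on the mean share, adjusted over the 26, 22 differed between the diets, 20 upward and 2 downward (p = 0.000155 is the smallest that 8 arrays against 8 can give). Shares of 1 array are not independent, so a fall of let-7 and a rise of other lists are parts of 1 balance. Counts of members called are given beside the shares and read against the 41.1% and 33.5% above. Counts over members detected on all 16 arrays are read against the 29 higher and 61 lower of 104.

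**Figure D4:**
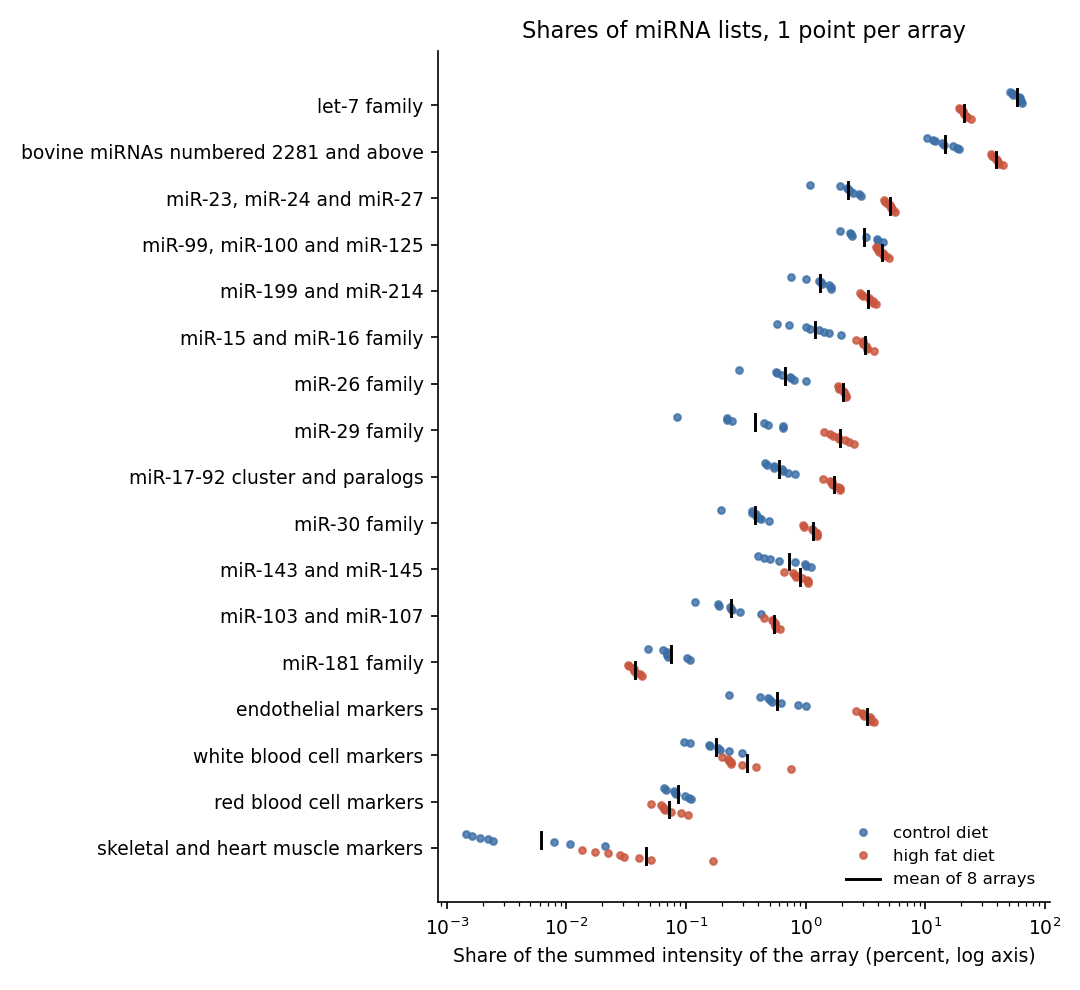
Share of the summed intensity of the array (percent, logarithmic axis) held by 17 of the lists of miRNAs, 1 point per array and a bar at the mean of 8 arrays for each diet. The let-7 family moves from 58.8% to 21.2%, the endothelial markers from 0.582% to 3.23%, and the red blood cell markers overlap between the diets.

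The bovine miRNAs of high number, from miR-2281 upward, most of which have no known function, were mostly lower relative to the array although their share rose. Of 304 on the array 69 were detected on at least 1 of the 16 arrays, 54 were tested, and 38 were lower, 3 higher and 13 not called, with a median difference of -1.38. Of the 26 detected on all 16 arrays 24 were lower and 1, miR-2478, was higher, with a median of -1.82 after centring and of 1.06 before any scaling. Over all 104 miRNAs detected on all 16 arrays 61 were lower, and the centred median of the 91 detected on all 32 was -0.88. The share of the list was 14.7 ± 3.29% in control steers and 39.3 ± 3.09% in high fat steers, and without miR-2478 it turned round, from 13.2 ± 3.79% to 7.54 ± 2.78%. bta-miR-2305, among the 5 brightest on control arrays, had intensities of 875, 2268 and 4227 there and 2465, 3679 and 5760 on high fat arrays (lowest, median, highest). Its difference was -1.99 ± 0.28 (SE, adjusted p = 2.59e-07, limma).

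The 8 largest falls among miRNAs detected on all 16 arrays with no overlap after centring were miR-2286, miR-665, miR-1281, miR-425-3p, miR-2382*, miR-2425*, miR-2300a-5p and miR-2892, from -3.09 to -2.89. All 8 had nearly equal intensities before scaling. miR-2892 was at 43.1, 63.0 and 96.1 on control arrays and 51.5, 61.1 and 70.9 on high fat arrays (lowest, median, highest), an unscaled difference of -0.0014. miR-2286 was at 14, 34.8 and 51.8 and 23.3, 25.1 and 35.1, with a centred difference of -3.09 ± 0.22 (SE, adjusted p = 8.83e-14, limma). With the spike-ins as the scale all 8 differences were slightly above 0, from 0.04 to 0.25, so their fall is relative to the other miRNAs of the array.

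The 8 largest rises among miRNAs detected on all 16 arrays with no overlap were those of miR-2478, miR-30b-5p, miR-199b, miR-34a, miR-15a, miR-126, miR-497 and miR-195. miR-30b-5p, of a family that rises as human fat cells differentiate, had intensities of 3.73, 21.8 and 67.7 on control arrays and 799, 1375 and 2114 on high fat arrays (lowest, median, highest). Its difference was 3.19 ± 0.27 (SE, adjusted p = 6.86e-12, limma), a 9.13-fold rise relative to the array. miR-199b, a miRNA of mesenchymal cells, followed with 8.45, 37.2 and 95.5 against 1146, 1656 and 3071 and a difference of 2.93 ± 0.26 (adjusted p = 9.04e-12, limma). Neither miRNA had a control array near its lowest high fat array.

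miR-34a, a target of p53, had intensities of 4.42, 19.6 and 48.4 on control and 459, 794 and 1135 on high fat arrays and a difference of 2.65 ± 0.22 (adjusted p = 2.38e-12, limma). miR-15a, miR-497 and miR-195, of the seed family that targets cell cycle genes, rose by 2.60, 2.12 and 1.87. Of the 7 members of the miR-15 and miR-16 family on the array 6 were higher, and miR-15b went the other way, with 122, 258 and 893 on control and 620.4, 843 and 1220 on high fat arrays and a difference of -1.23 ± 0.22 (adjusted p = 1.08e-05, limma). Of the 4 members detected on all 16 arrays 3 were higher and 1, miR-15b, was lower. The share of the family was 1.2 ± 0.455% and 3.14 ± 0.304%. The relative fall of miR-15b turned to a rise with no scaling, with the spike-ins and with miR-181a as the scale.

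Ranks by intensity among the 104 miRNAs need no scaling between arrays. The diets did not overlap for 24 miRNAs that stood higher in high fat steers (23.1%) and 27 that stood lower (26.0%). miR-30b-5p moved from a median rank of 85 (range 64 to 103) to 31 (30 to 34), and miR-199b from 70 to 23.5. miR-22-3p, miR-28 and miR-10a, named here after their ranks were seen, also climbed, from 97.5 to 58, from 91 to 54.5 and from 92 to 65. On the other side let-7d dropped from 12.5 (10 to 13) to 34 (31 to 37), miR-214 from 23.5 to 47.5 and miR-423-5p from 38 to 69.5. Among the brightest, let-7b went from rank 1 to 3 and let-7c from 3 to 12, while let-7a held rank 2 on both diets.

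**Figure D5:**
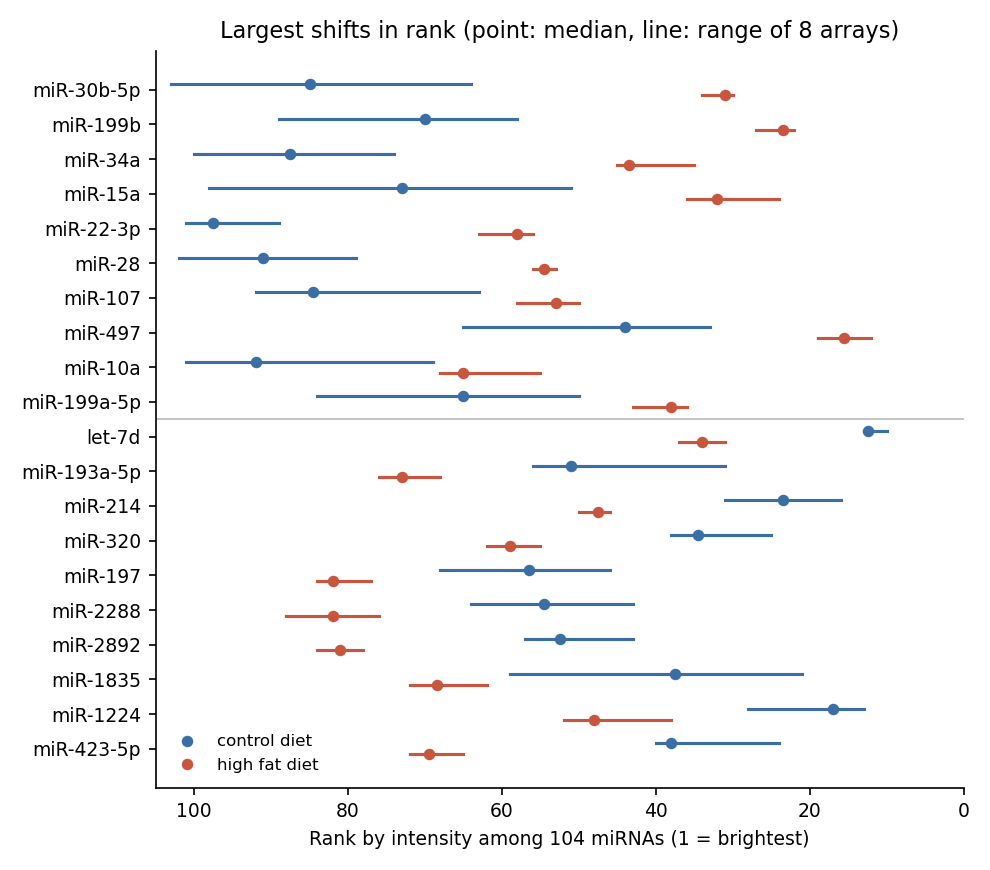
Ranks by unscaled intensity among the 104 miRNAs detected on all 16 arrays (1 is the brightest), as the median (point) and range (line) of 8 arrays for each diet. Shown are the 10 largest climbs and the 10 largest drops among miRNAs whose diets do not overlap, with miR-30b-5p moving from 85 to 31 and miR-423-5p from 38 to 69.5.

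Signal was also spread over more miRNAs on the high fat arrays, below the few at the top. The number of miRNAs that made up 90% of the summed intensity was 21 to 34 on control arrays, with a median of 30, and 42 to 46 on high fat arrays, with a median of 44. The number that made up 50% was 3 to 5 and 4 to 5. The 10 brightest miRNAs held a median of 74.4% in control steers and 64.7% in high fat steers, with ranges of 71.3% to 82.3% and 62.1% to 67.1%.

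Several lists were of miRNAs known from fat cell differentiation. Of the 7 miRNAs of the miR-30 list 4 were higher and 2, miR-30f and miR-30b-3p, were lower. miR-30b-3p is an opposite arm and does not share the family's seed. Of the 4 detected on all 16 arrays 2 were higher and 1 lower. The call of miR-30b-3p (adjusted p = 0.0464, limma) was lost on leaving out any 1 of 12 of the 16 arrays. The share of the list was 0.374 ± 0.0845% in control steers and 1.14 ± 0.122% in high fat steers. miR-26a and miR-26b were at 0.89 ± 0.16 and 1.81 ± 0.21 (adjusted p = 1.13e-05 and 3.5e-09, limma). miR-103 and miR-107, linked to insulin sensitivity, were at 0.74 ± 0.17 and 1.28 ± 0.18 (adjusted p = 0.000213 and 1.56e-07, limma). The rises of miR-26a, miR-103 and miR-107 were turned below 0 in the deposited log2 values, at -0.54, -0.68 and -0.14. miR-107 was at 6.59, 20.3 and 35.7 on control and 206, 350.1 and 633 on high fat arrays (lowest, median, highest).

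miR-27a-3p and miR-130a, which repress PPARG, the main regulator of fat cell formation, were both higher with the main scaling. By percentile rank within the array they were higher by 13.6 and 13.8 percentiles and did not pass (adjusted p = 0.1 and 0.0595, limma). miR-27a-3p was detected on 7 control arrays, with at most 76.3, and had 1001, 1358 and 1936 on high fat arrays, a difference of 3.55 ± 0.66 (adjusted p = 1.51e-05, limma). miR-130a was detected on 7 control arrays too, with at most 21.4, against 241 to 827 on high fat arrays, a difference of 3.05 ± 0.46 (adjusted p = 7.26e-07, limma). Of the 6 tested members of the miR-23, miR-24 and miR-27 clusters 5 were higher and miR-23b-3p was lower at -0.42 ± 0.16 (adjusted p = 0.0236, limma), a call that was lost without control steer 108 or 111 (adjusted p = 0.056 and 0.0618, limma). Of the 4 members detected on all 16 arrays 3 were higher and 1 lower. The share of these clusters was 2.26 ± 0.567% and 5.05 ± 0.362%.

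miR-148a, of a seed family of fat cell differentiation, was detected on 7 control arrays, with at most 49.2, and had 715 to 1994 on high fat arrays, with a difference of 3.54 ± 0.61 (adjusted p = 5.63e-06, limma). By percentile rank miR-148a was higher by 13.7 percentiles and did not pass (adjusted p = 0.0675, limma). miR-143, a miRNA of smooth muscle and of fat cell differentiation, was detected on 2 control arrays, at most 4.14, and had 54.0 to 153 on high fat arrays, with a difference of 2.79 ± 0.23 (adjusted p = 4.5e-12, limma). Its cluster partner miR-145 was detected on all 16 arrays, with 116, 355 and 471 on control and 1133, 2012 and 3682 on high fat arrays, and had a difference of -0.10 ± 0.21 (adjusted p = 0.717, limma). Under normexp the difference of miR-143 turned to -1.18. The share of this pair overlapped between the diets.

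miR-193a-3p and miR-365-3p, linked to brown fat differentiation, stood apart from each other. miR-193a-3p was detected on 4 control arrays, with at most 9.75, and had 391 to 1208 on high fat arrays, a difference of 4.95 ± 0.47 (adjusted p = 7.17e-11, limma). The 5p arm miR-193a-5p, in contrast, was at 48.3, 68.9 and 98.1 and 70.1, 116 and 174, a difference of -2.20 ± 0.25 (adjusted p = 2.05e-09, limma). miR-365-3p was at 0.02 ± 0.23 (adjusted p = 0.96, limma). miR-378, which lies within the PPARGC1B gene, was at -0.61 ± 0.20 (adjusted p = 0.00813, limma), and miR-21 was not detected on 4 control arrays, had at most 9.35 on the others and 160.3 to 450.4 on high fat arrays, with a difference of 3.90 ± 0.28 (adjusted p = 1.31e-13, limma). That value rests on the floor for the 4 arrays, and under normexp miR-21 turned to -0.31. With those 4 arrays set to their lowest detected intensity, the rise was at least 9.89-fold.

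The miR-29 family, which represses collagen genes, and the mesenchymal miR-199 family had members that were higher with the main scaling. Of 4 miR-29 members 3 were higher, miR-29a at 1.58, miR-29b at 3.95 and miR-29c at 3.77, and the share of the family rose from 0.374 ± 0.212% to 1.93 ± 0.375%. Only miR-29a was detected on all 16 arrays. miR-29a was at 24.2, 137 and 435 on control and 1448, 2469 and 4677 on high fat arrays. miR-199a-3p was at 1.48 ± 0.19 and miR-199a-5p at 1.74 ± 0.27 (adjusted p = 4.81e-08 and 1.13e-06, limma). Under the 75th percentile of all miRNAs miR-29a, miR-199a-3p and miR-199a-5p were at 0.31, 0.22 and 0.47 and no longer passed (adjusted p = 0.535, 0.587 and 0.313, limma). miR-214, made from the same gene as miR-199a, was lower, with 136.2, 210.1 and 470.4 on control and 402, 524 and 736 on high fat arrays and a difference of -1.76 ± 0.16 (adjusted p = 1.25e-11, limma).

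The miR-17-92 cluster and its paralogs, known for driving proliferation, were in part under the detection limit of the control arrays. Of 15 on the array 12 were tested, 9 were higher and miR-92 and miR-92b were lower, with a median of 2.40, and 2, miR-92 and miR-25, were detected on all 16 arrays, of which 0 were higher. Over the miRNAs detected on all 16 arrays alone the share of this list was lower by -0.14 percentage points in high fat steers, where over all miRNAs it rose from 0.603 ± 0.123% to 1.72 ± 0.19%. miR-19b was detected on 5 control arrays, with at most 15.8, and had 641, 1077 and 1892 on high fat arrays, a difference of 5.24 ± 0.49 (adjusted p = 4.11e-11, limma). miR-92 had 94.8, 135.8 and 205 and 209, 293 and 499, a difference of -1.70 ± 0.18 (adjusted p = 1.02e-09, limma).

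In high fat steers, 41 miRNAs were detected on all 8 arrays and on no control array, and 0 showed the reverse. The 41 stand beside 275 miRNAs detected on at least 1 of the 16 arrays. Control arrays were dimmer and detected fewer miRNAs (118 to 176 against 228 to 254). The imbalance of 41 against 0 therefore cannot be told apart from overall brightness. For the 41 miRNAs the difference can be given only as a bound. Each control array is set there to the lowest centred intensity called detected on it. Detection is called for each miRNA separately, so an undetected miRNA may lie above that intensity. The bounds hold only under this setting. For 22 of the 41 the bound was above 1-fold and for 12 above 2-fold. Under this setting the largest bounds were those of miR-142, at least 11.7-fold higher, miR-19a, at least 10.9-fold, miR-424, at least 6.51-fold, miR-106, at least 6.21-fold, and miR-450, at least 3.79-fold. Their intensities on high fat arrays were 148 to 357 for miR-142, 109 to 351 for miR-19a and 51.1 to 249 for miR-424. With normexp the differences of all 5 turned below 0, from -0.06 to -0.99.

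Of the 12 miRNAs that the study had chosen on these samples for qRT-PCR, 6 were higher, 3 lower and 3 did not pass, and since they were picked from the same samples this is not independent evidence of their direction. miR-101 was the highest of them, at 4.94 ± 0.30 (adjusted p = 6.12e-15, limma), detected on 1 control array at 5.31 and on all high fat arrays at 208 to 744. The other control values of miR-101 rest on the floor, and with each control array at the higher of its own value and its lowest detected intensity, the rise was at least 17.9-fold. miR-19a, miR-106 and miR-142, detected on 0 control arrays, have only the bounds given above. miR-16b, detected on 7 control arrays, was at 2.42, turning to -0.70 under normexp, and miR-103 at 0.74. miR-92, miR-92b and miR-2368* were lower, and miR-196a, miR-296 and miR-2454 were at -0.75, -0.82 and -0.54 without passing (adjusted p = 0.12, 0.0633 and 0.302, limma). Single arrays moved these 3, and without control steer 108 they were at -0.17, -1.21 and -0.93 (adjusted p = 0.457, 0.000996 and 0.0389, limma). By percentile rank miR-196a was called higher, by 14.7 percentiles (adjusted p = 0.0188, limma). The rises of miR-16b and miR-103 did not pass by percentile rank (adjusted p = 0.0558 and 0.0896, limma). miR-92b was detected on all 8 control arrays, at 2.19 to 15.3, and on 7 high fat arrays, with at most 10.8, a difference of -2.58 ± 0.29 (adjusted p = 1.7e-09, limma). The reference of the study's qRT-PCR, miR-181a, itself fell relative to the array, with 13.5, 25.8 and 43.3 on control and 25.2, 48.4 and 79.9 on high fat arrays and a difference of -1.98 ± 0.18 (adjusted p = 1.57e-11, limma). Its unscaled difference was 0.91. Relative to miR-181a, the study's qRT-PCR gave miR-92a (taken here as miR-92), miR-92b and miR-296 as higher on the high fat diet. It gave miR-19a, miR-101, miR-103, miR-106 and miR-142-5p as higher too. The study described 6 of the 12 as agreeing between qRT-PCR and its microarray values and 6 as divergent.

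Markers of other cell types were uneven. The endothelial miRNAs miR-126 and miR-126* were both higher, and their summed share was 0.23 to 1.01% in control steers and 2.62 to 3.72% in high fat steers, with no overlap. miR-126* was detected on only 2 control arrays, so its rise rests on the floor. Under normexp miR-126* turned to -0.0365 (adjusted p = 0.784, limma). miR-126 had intensities of 66.4, 237 and 489 on control and 4575, 7574 and 12450 on high fat arrays, a difference of 2.14 ± 0.22 (SE, adjusted p = 2.19e-10, limma), and climbed from a median rank of 26 to 6. Whether vessels took part in the other differences was not tested.

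Of the 8 white blood cell markers 6 were detected, and 1 was higher (miR-142) and 1 lower (miR-155), while miR-223, abundant in neutrophils and monocytes, was at 0.13 ± 0.28 (adjusted p = 0.716, limma) and miR-150 was detected on 1 high fat array. Their summed share was 0.0968 to 0.294% and 0.20 to 0.761%, with means of 0.177% and 0.321%. The share passed as higher (exact permutation, adjusted p = 0.0167) although the diets overlapped. The difference of 0.144 percentage points was 0.0813 without high fat steer 202, and over the miRNAs detected on all 16 arrays alone it was 0.0531 and did not pass (exact permutation, adjusted p = 0.596). The red blood cell markers split, with miR-451 at 2.94 and miR-486 at -2.58, and their summed share of 0.0652 to 0.111% and 0.0508 to 0.104% overlapped and did not pass (exact permutation, adjusted p = 0.133). Under normexp miR-451 turned to -0.87. Of the 7 muscle markers 4 were detected. miR-1 was detected on 0 control arrays and on all 8 high fat arrays, at 11.7 to 186, and the summed share of the list was 0.00145 to 0.0209% in control steers and 0.0135 to 0.168% in high fat steers, where the highest value was that of steer 202. The difference of the muscle share was 0.0402 percentage points with that steer and 0.0228 without it. The epithelial markers (6) and the liver marker miR-122 were detected on 0 of the 16 arrays, and of the 6 nerve markers miR-338 alone was detected, at 3.19. The part of blood or muscle in the other differences was not tested.

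Of the miRNAs of the imprinted DLK1-DIO3 cluster, 20 of 46 were tested and 10 were higher, 2 lower and 8 not called, with a median of 0.33. The 10 of 20 stand beside 41.1% called higher over all miRNAs tested. Of the 3 members detected on all 16 arrays 0 were higher and 2 lower. The summed share was 0.241 ± 0.127% and 0.338 ± 0.0427%, which did not pass (exact permutation, adjusted p = 0.0646), though it did without control steer 108 (exact permutation, adjusted p = 0.000673). Over the miRNAs detected on all 16 arrays alone the difference turned to -0.0933 percentage points. miR-379 led the rises, at 2.99 ± 0.23 (adjusted p = 4.65e-13, limma), detected on 2 control arrays with at most 4.45 and on high fat arrays at 65.5 to 163, and turned to -0.80 under normexp. miR-665 and miR-494 were lower, at -3.06 and -0.99, and without control steer 108 miR-494 was at -0.64 and no longer passed (adjusted p = 0.0599, limma). The HOX cluster miRNA miR-10b was at 39.1, 113 and 199.6 on control and 1176, 2323 and 3881 on high fat arrays, a difference of 1.42 ± 0.23 (adjusted p = 2.45e-06, limma), while miR-196a did not pass. Of the miR-99, miR-100 and miR-125 list, clustered in part with let-7, miR-99a was at 1.26 ± 0.20 (adjusted p = 1.38e-06, limma), miR-125b at -0.04 ± 0.17 (adjusted p = 0.84, limma) and miR-125a at -1.02 ± 0.31 (adjusted p = 0.00386, limma). miR-204, of fat against bone fate, was at 0.21 ± 0.23 (adjusted p = 0.421, limma).

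Each probe of a miRNA was also looked at on its own, an addition made after the data were seen. For all 90 miRNAs that were called and detected on all 16 arrays, each of the 2 to 4 probes of the miRNA had the sign of the call. The calls were made on intensities summed over these same probes, so the agreement in sign is not separate evidence for them. In visceral fat of the same steers 168 of the 176 called miRNAs had the same sign, in groups that lay on slides of their own but shared each diet's scan session. The visceral arrays differed in brightness too, with median summed intensities of 31928 on control and 151704 on high fat arrays. The share with the same sign over all 236 miRNAs is not given here, so the 168 are not read as a replication. The diet difference itself departed between the depots for 3 miRNAs (1.27% of 236, limma interaction, with 31 at an unadjusted p under 0.05). miR-130b was at a difference of 1.10 in subcutaneous and 0.00 in visceral fat (interaction adjusted p = 7.36e-06, limma), and miR-339 and miR-487b were higher by 1.90 and 2.12 in subcutaneous fat and by 2.73 and 2.80 in visceral fat (interaction adjusted p = 0.0345 for both). All 3 were detected on no control subcutaneous array, so these values rest on the floor, and the count ran from 1 to 7 when single arrays were left out.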

How the data were processed

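Total RNA of each sample was labelled with Cy3 and hybridized on an Agilent bovine miRNA array with 20 spots for each of 672 miRNAs. According to the labels and file headers, the authors extracted each scan once with Feature Extraction 10.7.3.1 and deposited spot intensities and, for each miRNA, a background-subtracted total intensity, not scaled between arrays, with 0.1 standing for a miRNA not detected, and a call of detection. The authors also deposited log2 values from GeneSpring, normalized to the 75th percentile, whose features carry numbers and were matched to miRNAs by value (244 of 244 features above 0, tolerance 0.001). Of the miRNA spots 0 were saturated and 3.30 percent carried an outlier mark, and these were left out only where spots were used directly.

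Samples were grouped by the diet and depot in their labels. Total intensities were put on the log2 scale and centred on each array's median over the 91 miRNAs detected on all 32 arrays, and values under a common floor of -5.67 (over arrays, the median of the smallest value called detected) were set to it. miRNAs detected on at least 8 arrays (240) that rose above the floor somewhere (236) were tested with limma 3.58.1 in R 4.3.3 (lmFit and eBayes, the 4 groups in 1 fit, two-sided, Benjamini-Hochberg adjusted p under 0.05). Differences are high fat minus control with their standard error. Shares, ratios and ranks were computed from unscaled totals within an array (Python 3.11.15, SciPy 1.17.1). On data simulated for this comparison with 236 miRNAs the fit called 26 of 30 changed by 1 log2 unit, 30 of 30 changed by 2 and 2 of 176 unchanged. Most miRNAs were unchanged there, 176 of 236, whereas on the arrays 97 of 236 were called higher and 79 lower. How often the fit errs where most miRNAs differ was not tested. With 8 arrays in a group precision is limited. Dim miRNAs are also cut by a detection limit that lay higher, relative to other miRNAs, on control arrays.

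The lists of miRNAs, the pairs and the comparison itself were chosen with earlier results of these data known. The pattern for miR-24 in 1 list was corrected after the files were read, since it had also matched names that begin with 24. The miRNAs named are the 12 of the study's qRT-PCR selection and bta-miR-181a, the 8 largest rises and falls among miRNAs detected on all 16 arrays whose diets did not overlap, the 5 largest bounds, the 5 highest shares on each diet, in each list the member with the highest share, the largest rise and the largest fall among those called, and the members of the pairs. Others are named to account for a list, and those of the rank plot were chosen after their ranks were seen. Alternatives covered the scaling, signal, background correction, floor, filter, samples, blocks, the methods' t-test and each array left out. Steers give the pairing of the depots. Deviations of a steer's samples of both depots from their group means correlated between -0.40 and 0.65 over miRNAs. RefSeq gene positions were used only for which hairpins neighbour each other. Mature sequences and the comparison by GC content are not given here.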

Additional observations from a re-analysis of the deposited data

Results flagged for a closer look

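Within the named values, 191 groups of 8 arrays were looked at for an array set apart from its group, and 18 (9.42%) held one. For a single group, chance alone gives about 1 in 20. The groups share arrays and miRNAs, so the 18 cannot be set against that rate. On the control diet 3 steers supplied all of the arrays set apart. Control steer 405 stood highest in let-7b, at a centred log2 intensity of 7.96 where the other arrays reached 7.29, and lowest in miR-151, at -2.80, in the share of the miR-30 family, at 0.196%, and in the log2 ratio of let-7g to let-7b, at -7.08. Control steer 111 stood highest in miR-10b, at 1.82, in miR-365-3p, at 2.74 where the others reached 1.29, in the shares of miR-10 and miR-196, at 0.666%, and of miR-193 and miR-365, at 1.30%, and in the log2 ratio of miR-199a-3p to miR-199a-5p, at 3.31. Control steer 108 stood highest in miR-494, at 0.92 where the others reached -1.21, and in the share of the DLK1-DIO3 cluster, at 0.534%.

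On the high fat diet, steer 202 stood highest in miR-21, at -0.15 where the others reached -1.38, in the share of the muscle markers, at 0.168% where the others reached 0.0507%, in that of the white blood cell markers, at 0.761% where the others reached 0.384%, and in the log2 ratio of miR-103 to miR-107, at 1.83. Steer 411 stood highest in miR-103, at 1.14, miR-125b, at 4.20, and miR-151*, at 1.99.

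The diet difference departed between subcutaneous and visceral fat by the interaction test for miR-130b, by 1.10 (subcutaneous minus visceral), miR-339, by -0.82, and miR-487b, by -0.68.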

How the results depend on the processing

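The diets differ in overall brightness, slide and scan session, so the centre chosen sets the sign of many differences, and dim miRNAs on the control arrays lie under the detection limit. Counts of higher and lower miRNAs (97 and 79) were 57 and 102 with the 75th percentile of all miRNAs, 50 higher in the deposited log2 values, 206 and 4 with no scaling, 216 and 1 with the labelling spike-ins, 168 and 21 with bta-miR-181a, 36 and 184 with normexp, 27 and 52 over the miRNAs detected on all 32 arrays, 63 higher with the floor at the highest detection limit (added after seeing the data), and 50 lower by the methods' t-test after Bonferroni correction. The median difference of the 91 common miRNAs was -0.88 as reported and ran from -2.30 in the deposited values to 2.26 with the spike-ins. The 3 differences between depots became 5 under quantile normalization, 27 with no scaling, 13 with the spike-ins, 11 with bta-miR-181a, 8 by percentile rank, 128 with normexp, 5 with a floor at an intensity of 1, 7 with the highest floor and 0 over the miRNAs detected on all 32 arrays, where fewer were tested. With the steer as a replicate block they were 5 by within-steer differences, and the block as a random term (correlation -0.038) left the counts at 97, 79 and 3 and changed no count. Leaving out each array in turn gave 92 to 99 higher, 75 to 84 lower and 1 to 7 differences between depots, with 1 left without control steer 108, 209, 211, 307, 308 or 410 or high fat steer 109, 202 or 303, and 7 without control steer 111. The 22 lists with a changed share ran from 21 to 23 and the 6 pairs from 5 to 6.

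Differences that changed sign and passed the test as reported or in the alternative (log2, high fat minus control, percentage points for shares and percentiles for ranks) are given by setting, and the cause was not tested. Under the 75th percentile of all miRNAs these were miR-103 (-0.52), let-7g (-0.59), miR-24-3p (-0.14), miR-26a (-0.38), miR-99a (-0.000228), miR-204 (-1.06), miR-365-3p (-1.24), miR-223 (-1.14), miR-27b (-0.12), miR-151* (-0.82). In the deposited log2 values they were miR-103 (-0.68), let-7g (-0.75), miR-107 (-0.14), miR-24-3p (-0.30), miR-26a (-0.54), miR-99a (-0.16), miR-10b (-0.00463), miR-204 (-1.22), miR-365-3p (-1.40), miR-223 (-1.30), miR-27b (-0.29), miR-151* (-0.99). With bta-miR-181a as the scale they were miR-2454 (1.32), miR-296 (1.16), miR-92 (0.28), let-7a (0.41), let-7f (1.22), miR-125b (1.93), miR-30b-3p (0.67), miR-15b (0.74), miR-214 (0.22), miR-145 (1.88), miR-23b-3p (1.56), miR-378 (1.36), miR-494 (0.99), miR-155 (0.76), miR-151 (1.80). With no scaling they were miR-196a (1.27), miR-2454 (2.08), miR-296 (1.97), miR-92 (1.18), miR-181a (0.91), let-7b (0.16), let-7a (1.31), let-7c (0.28), let-7f (2.13), miR-2305 (0.90), miR-125b (2.84), miR-30b-3p (1.32), miR-15b (1.65), miR-214 (1.13), miR-145 (2.79), miR-23b-3p (2.47), miR-125a (0.47), miR-193a-5p (0.68), miR-378 (2.27), miR-494 (1.89), miR-486 (0.30), miR-155 (1.67), miR-151 (2.70). With the labelling spike-ins they were miR-196a (1.37), miR-2454 (2.28), miR-296 (2.19), miR-92 (1.44), miR-181a (1.16), miR-2286 (0.0433), miR-665 (0.0763), miR-1281 (0.12), miR-425-3p (0.0919), miR-2382* (0.22), miR-2425* (0.15), miR-2300a-5p (0.18), miR-2892 (0.25), let-7b (0.41), let-7a (1.57), let-7c (0.54), let-7f (2.38), miR-2305 (1.15), miR-125b (3.09), miR-30b-3p (1.48), miR-15b (1.90), miR-214 (1.38), miR-145 (3.04), miR-23b-3p (2.72), miR-125a (0.71), miR-193a-5p (0.94), miR-378 (2.52), miR-494 (2.15), miR-486 (0.55), miR-155 (1.92), miR-151 (2.95). With normexp background correction they were miR-106 (-0.66), miR-142 (-0.11), miR-16b (-0.70), miR-19a (-0.0618), miR-424 (-0.77), miR-450 (-0.99), let-7f (0.23), miR-125b (0.60), miR-107 (-0.19), miR-143 (-1.18), miR-204 (-0.27), miR-21 (-0.31), miR-379 (-0.80), miR-1 (-1.24), miR-451 (-0.87), miR-126* (-0.0365), miR-338 (-0.00315). Under quantile normalization they were let-7f (0.45), miR-125b (0.82), and by percentile rank miR-196a (14.72), let-7f (0.19), miR-125b (0.48), miR-30b-3p (10.13). Over the miRNAs detected on all 16 arrays they were the share of miR-17-92 cluster and paralogs (-0.14), share of DLK1-DIO3 cluster (-0.0933), and without bta-miR-2478, an alternative added after seeing the data, the share of bovine miRNAs of high number (-5.62). The planned comparison of miRNAs by GC content was not run.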
